A study of Homo sapiens with 8 samples.

Results

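Many antisense long noncoding RNAs carry a GENCODE symbol that is that of another gene followed by AS and a number. Here 288 of the 15222 genes tested carry a symbol that ends in AS and 1 digit. They were chosen by measured level, as genes with more than 1 CPM (counts per 1000000 of the library total) in at least 4 of the 8 libraries. EPB41L4A-AS1 was left out, and 928 of the 1217 annotated symbols of this form did not reach that level. The cells are D283 Med, a medulloblastoma line, transduced with a lentivirus that carries FLAG-tagged OMOMYC under a doxycycline-inducible promoter and selected as a population. OMOMYC is a dominant-negative mini-protein made from MYC. The comparison sets 4 libraries of D283-OMO cells treated with doxycycline (DOX) for 72 h (OMO+DOX) against 4 libraries of the same cells without it (OMO). No wild-type cells given DOX were analysed here, so OMOMYC and DOX itself cannot be told apart. The libraries held polyA+ RNA and between 38390649 and 54020451 counts each. The study's methods describe the libraries of a group as independent biological replicates.

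An antisense gene is transcribed from the strand opposite to a partner, the sense gene, and may overlap its exons, lie within its introns, or start head to head with it from a shared promoter region. Some antisense RNAs act on the sense gene by interfering with its transcription or by carrying chromatin regulators to it, and others act elsewhere in the cell or have no known activity. MYC, with its partner MAX, binds E-boxes in many promoters, and OMOMYC competes for the same partners and sites. The symbol alone does not show that an antisense gene acts on its sense gene.

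A sense gene was found in the annotation for 286 of the 288 members, and 285 of these are protein-coding. HOXC-AS1 and RPARP-AS1 have none of that symbol. By annotated type, 215 members are antisense genes, 36 processed transcripts, 29 lincRNAs and 3 bidirectional promoter lncRNAs, and NCBP2-AS2 is annotated as protein-coding. In 211 pairs the exons of both genes overlap on opposite strands, with a median of 9.88% of the antisense exon length shared. In 43 pairs the gene bodies overlap without shared exons, and in 30 pairs the genes face away from each other without overlap, with a median distance of 102.5 bp between the start sites. The remaining 2 converge without overlap. The kit was stranded, but the strand setting of the counting is not given in the sources used here. Of the 211 members with overlapping exons, 118 had non-whole counts in all 8 libraries. So had 3 of the 43 members that overlap in the body only and 4 of the 30 head-to-head members. Non-whole counts per gene can be the trace of reads divided between genes. Values of overlapping pairs may therefore share reads.

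The labelled cell type was checked against markers. Of 12 medulloblastoma and neural markers, 11 were expressed, and their summed level was 2934 to 3048 CPM in OMO and 2003 to 2126 CPM in OMO+DOX. The sum hides changes in both directions. Mean NES was 59.8 CPM in OMO and 225 CPM in OMO+DOX, while mean CRX was 126 and 21.0 CPM. STMN2, a neuronal marker, was near 0. The endothelial list summed to 2.59 to 3.67 CPM, from VWF in both groups and from CDH5 in OMO+DOX only. The 4 leukocyte markers summed to at most 0.561 CPM, the 4 glial markers to at most 0.857 CPM and the 3 epithelial markers to at most 0.797 CPM in any library. The fibroblast list summed to 20.9 to 24.9 CPM, nearly all from COL1A1, while COL1A2, DCN and LUM averaged under 1 CPM. MYC itself averaged 939 CPM in OMO and 1123 CPM in OMO+DOX, values that may hold reads of the MYC-derived transgene.

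Head-to-head pairs here are those that face away from each other without overlap, and the bases between their start sites are shown first. Starts within 1 kb of each other were found in 97 tested pairs, so close starts are not limited to this arrangement. The sequences below are RefSeq on GRCh38.p14, read 5′ to 3′ on the strand of the antisense gene and ending just before its RefSeq start. They were chosen from the 4 gaps of at most 250 bases that hold no annotated exon. SOX21-AS1 and SOX21 fell together, UBL7-AS1 and UBL7 rose together, and TRIM52-AS1 with TRIM52 is a pair in which neither passed the test. Capitals mark the E-box core CANNTG, which reads the same on both strands.
SOX21-AS1, chr13:94712546-94712715, plus strand: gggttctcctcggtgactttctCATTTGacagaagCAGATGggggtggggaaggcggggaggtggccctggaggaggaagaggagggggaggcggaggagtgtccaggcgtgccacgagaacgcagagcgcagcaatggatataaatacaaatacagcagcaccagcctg
UBL7-AS1, chr15:74461189-74461264, plus strand: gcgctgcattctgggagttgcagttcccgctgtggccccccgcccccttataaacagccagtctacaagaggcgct
TRIM52-AS1, chr5:181261144-181261211, plus strand: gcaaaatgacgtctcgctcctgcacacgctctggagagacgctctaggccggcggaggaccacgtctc

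The gap of SOX21-AS1 holds 2 CANNTG matches in 170 bases, and the gaps of UBL7-AS1 and TRIM52-AS1, of 76 and 68 bases, hold none. Over windows of 300 bases, from 250 before a start to 50 after it, CANNTG was found in 61.2% of the 209 members with a RefSeq promoter entry and in 68.7% of all 34943 entries. The canonical MYC E-box CACGTG, a palindrome and itself one form of CANNTG, was found in 19 of the 209 (9.09%) and in 7.23% of all entries. By call, it was present in 9.46% of 74 members that rose, 6.33% of 79 that fell and 12.5% of 56 that did not pass the test. These shares describe letters in a window and not binding. The site is shown for 2 head-to-head members, COX10-AS1, which rose, and INKA2-AS1, which fell, with CACGTG in capitals. It begins 247 bases before the RefSeq start of COX10-AS1 and 185 bases before that of INKA2-AS1.
COX10-AS1, chr17:14069679-14069708, minus strand: tcgCACGTGgtaataagagaagaatttccc
INKA2-AS1, chr1:111739644-111739673, plus strand: cccccaacgaagCACGTGaccctcgtgtgg

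Named antisense genes were mostly of low abundance. Their median CPM over the 8 libraries, scaled by the trimmed mean of M values (TMM), was 3.44, beside 44.8 for their tested sense genes and 2.55 for the other noncoding genes tested. Levels ran from 0.736 to 744 CPM, with 4 members above 100 CPM, 52 between 10 and 100 CPM and 232 below 10 CPM. Together they took 0.316 to 0.339% of the counts in OMO libraries and 0.324 to 0.342% in OMO+DOX libraries, ranges that overlap.

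Upon DOX, 104 members rose and 112 fell in the quasi-likelihood test of edgeR, with adjusted p-values under 0.05, and 72 did not pass. Of those that passed, 48.1% were higher, and 56.7% with library size as the only scaling. Over all genes tested, 38.5% rose and 38.1% fell by the same rule, so the shares of the members, 36.1% and 38.9%, lie near the background. At the threshold for differential expression, a false discovery rate (FDR) below 0.001 and an absolute log2 fold change (log2FC) above 2, 8 members rose and 8 fell, against a background of 4.38% higher and 2.75% lower. The other noncoding genes tested gave 5.37% higher and 5.61% lower at that threshold, and the members 2.78% in each direction. The CPM of the groups did not overlap for 192 members, or 66.7%, beside 71.7% of all genes tested. The median log2FC was 0.01 for members and for all genes, and the median absolute log2FC was 0.50 and 0.43. In bulk RNA a lower level may mean fewer cells that express a gene or less RNA per cell, and these cannot be told apart.

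The choice by level bears on these counts. Of the 288 members, 219 exceeded 1 CPM in all 8 libraries, 14 did so only in the 4 OMO libraries and 15 only in the 4 OMO+DOX libraries. The latter 29 had to differ between the groups to enter the set in that way. They include 11 of the 16 differentially expressed members. LMCD1-AS1, INSYN1-AS1, TMEM108-AS1, NR2F1-AS1, RUNDC3A-AS1, GAS6-AS1 and MATN1-AS1 entered through OMO+DOX only. SOX9-AS1, CADM3-AS1, FGF13-AS1 and ZNF630-AS1 entered through OMO only. The filter fixed the separation of their groups, so no adjusted p-value is given for them. Just inside the threshold, the fourth highest level was 1.003 CPM of the library total for MED4-AS1, 1.009 for MORF4L2-AS1 and 1.013 for CDKN2B-AS1. Just outside, it was 0.951 for HOXA-AS3 and 0.935 for DENND5B-AS1.

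**Figure D1:**
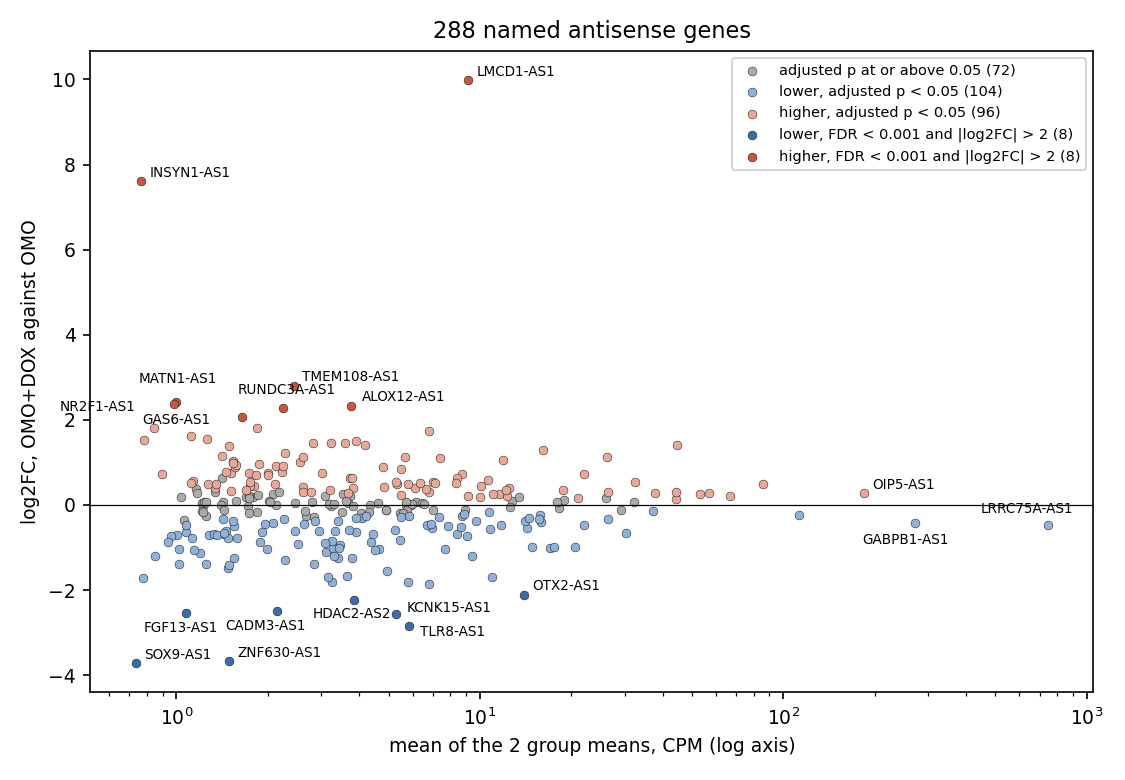
Log2FC of OMO+DOX against OMO (vertical axis) against the mean of both group means in CPM (horizontal log axis) for the 288 antisense genes, coloured by the call of edgeR's test. LMCD1-AS1 and INSYN1-AS1 stand above the other members at fitted values that depend on near-zero OMO counts, and the most abundant members lie close to 0.

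The strongest rise was that of LMCD1-AS1 (ENSG00000227110.7, GRCh38 chromosome 3, 7952805 to 8611924, minus strand). LMCD1 encodes a LIM domain protein that restrains GATA transcription factors. LMCD1-AS1 had 0 to 2 counts per OMO library and 751 to 1011 counts per OMO+DOX library. The OMO+DOX libraries held 17.3, 18.7, 19.8 and 17.5 CPM. Against the level that 3 counts would give in an OMO library, LMCD1-AS1 was at least 273-fold higher upon DOX (n = 4 per group). LMCD1 had 0 or 1 count in every library, so the antisense gene rose beside a sense gene that was not detected. The same floor holds for INSYN1-AS1 (ENSG00000260469.3, chromosome 15, 73752317 to 73770613), whose sense gene encodes a protein of inhibitory synapses. It had 0 or 1 count in OMO libraries and 1.52, 1.5, 1.64 and 1.43 CPM in OMO+DOX libraries, at least 22.6-fold higher. INSYN1 rose as well, with means of 1.65 ± 0.324 and 9.02 ± 0.609 CPM (± SD over 4 libraries here and below), a log2FC of 2.45 with a standard error (SE) of 0.12 and an adjusted p of 5.9e-09.

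In a further 4 rising members the sense gene was tested and rose as well. TMEM108-AS1 (chromosome 3, 133246106 to 133257188) held 0.837, 0.445, 0.671 and 0.471 CPM in OMO and 4.14, 4.88, 4.32 and 3.70 CPM in OMO+DOX, a log2FC of 2.81 (SE 0.18). TMEM108, a membrane protein of neuronal transport vesicles, rose less, with a log2FC of 0.84. NR2F1-AS1 (chromosome 5, 93409359 to 93585648) held 0.224, 0.368, 0.447 and 0.224 CPM in OMO and 1.72, 1.79, 1.58 and 1.52 CPM in OMO+DOX, a log2FC of 2.37 (SE 0.20). NR2F1, an orphan nuclear receptor of neural development, changed by almost the same amount, with a log2FC of 2.32 (SE 0.14). RUNDC3A-AS1 rose from 0.774 ± 0.185 to 3.72 ± 0.336 CPM (log2FC 2.27, SE 0.16), and RUNDC3A, a neuronal protein that binds RAP2, rose with a log2FC of 1.34. GAS6-AS1 rose from 0.637 ± 0.0282 to 2.65 ± 0.534 CPM (log2FC 2.06, SE 0.16). GAS6, the ligand of the TAM receptor kinases, rose with a log2FC of 0.43 (adjusted p = 0.0159), a call that was lost without OMO replicate 2 (log2FC 0.31, adjusted p = 0.0533).

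For the remaining rising members the sense gene did not reach the level needed for a test. ALOX12-AS1 (chromosome 17, 6876635 to 7012349) held 1.02 to 1.55 CPM in OMO and 5.88 to 6.59 CPM in OMO+DOX, a log2FC of 2.34 (SE 0.13, adjusted p = 1.44e-08). ALOX12, a lipoxygenase of arachidonic acid, stayed between 0.0896 and 0.434 CPM in every library, and its groups overlapped. MATN1-AS1 held 0.143 to 0.464 CPM in OMO and 1.42 to 1.90 CPM in OMO+DOX (log2FC 2.42, SE 0.27). MATN1, the cartilage matrix protein matrilin, held 0 to 7 counts in OMO libraries and 16 to 25 in OMO+DOX libraries.

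Among the falling members were SOX9-AS1 and OTX2-AS1, each the partner of a transcription factor gene. SOX9-AS1 (chromosome 17, 72034107 to 72237203) held 1.24, 1.35, 1.42 and 1.46 CPM in OMO and 0.118, 0.0748, 0.0586 and 0.154 CPM in OMO+DOX, a log2FC of -3.72 (SE 0.22). SOX9, an HMG-box factor of neural progenitors and glia, fell with it from 90.6 ± 7.29 to 12.2 ± 0.831 CPM, a log2FC of -2.90. The bodies of this pair overlap without shared exons. OTX2-AS1 (chromosome 14, 56813183 to 57152177) held 23.8, 22.0, 22.3 and 22.8 CPM in OMO and 5.36, 5.31, 5.18 and 5.26 CPM in OMO+DOX, a log2FC of -2.11 (SE 0.05, adjusted p = 2.01e-11). OTX2, the homeobox factor typical of Group 3 medulloblastoma, had a log2FC of -1.04 (SE 0.04). The level of the antisense gene therefore fell further than that of its partner, and the log2 ratio of their counts moved from -5.53 ± 0.07 to -6.59 ± 0.02.

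Other falling members were CADM3-AS1, FGF13-AS1 and KCNK15-AS1. CADM3-AS1 (chromosome 1, 159194325 to 159207973) held 3.31, 4.80, 3.13 and 3.41 CPM in OMO and 0.484 to 0.769 CPM in OMO+DOX (log2FC -2.49, SE 0.19). CADM3, a neuronal adhesion molecule, fell to a like degree (log2FC -2.72, SE 0.04), and their ratio did not separate the groups (difference 0.23, exact permutation p = 0.3143). FGF13-AS1 (chromosome X, 138711452 to 138716617) fell from 1.83 ± 0.0823 to 0.315 ± 0.0908 CPM (log2FC -2.55, SE 0.18), and FGF13, an intracellular FGF that binds sodium channels, with a log2FC of -1.88. KCNK15-AS1 (chromosome 20, 44694892 to 44746021) held 7.90 to 9.77 CPM in OMO and 1.35 to 1.60 CPM in OMO+DOX (log2FC -2.57, SE 0.10, adjusted p = 7.22e-10). KCNK15, a potassium channel subunit, had a count of 0 in all 8 libraries although its exons overlap those of the antisense gene.

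The last falling members differ in how far the sense gene followed. TLR8-AS1 (chromosome X, 12902817 to 12908333) held 9.49, 10.9, 10.6 and 10.2 CPM in OMO and 1.42, 1.42, 1.37 and 1.52 CPM in OMO+DOX, a log2FC of -2.84 (SE 0.08, adjusted p = 6.52e-11). TLR8, an endosomal RNA sensor, was below the level for a test, with 13 to 47 counts in OMO libraries and 3 to 7 in OMO+DOX libraries. ZNF630-AS1 (chromosome X, 48056310 to 48066583) held 2.29 to 3.46 CPM in OMO and 0.138 to 0.249 CPM in OMO+DOX, a log2FC of -3.68 (SE 0.21). ZNF630, a zinc finger gene, had a log2FC of only -0.68. HDAC2-AS2 (chromosome 6, 113969701 to 114471705) held 5.71 to 7.01 CPM in OMO and 1.17 to 1.45 CPM in OMO+DOX (log2FC -2.22, SE 0.11, adjusted p = 3.53e-09), and the histone deacetylase HDAC2 had a log2FC of -0.42 (SE 0.04).

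**Figure D2:**
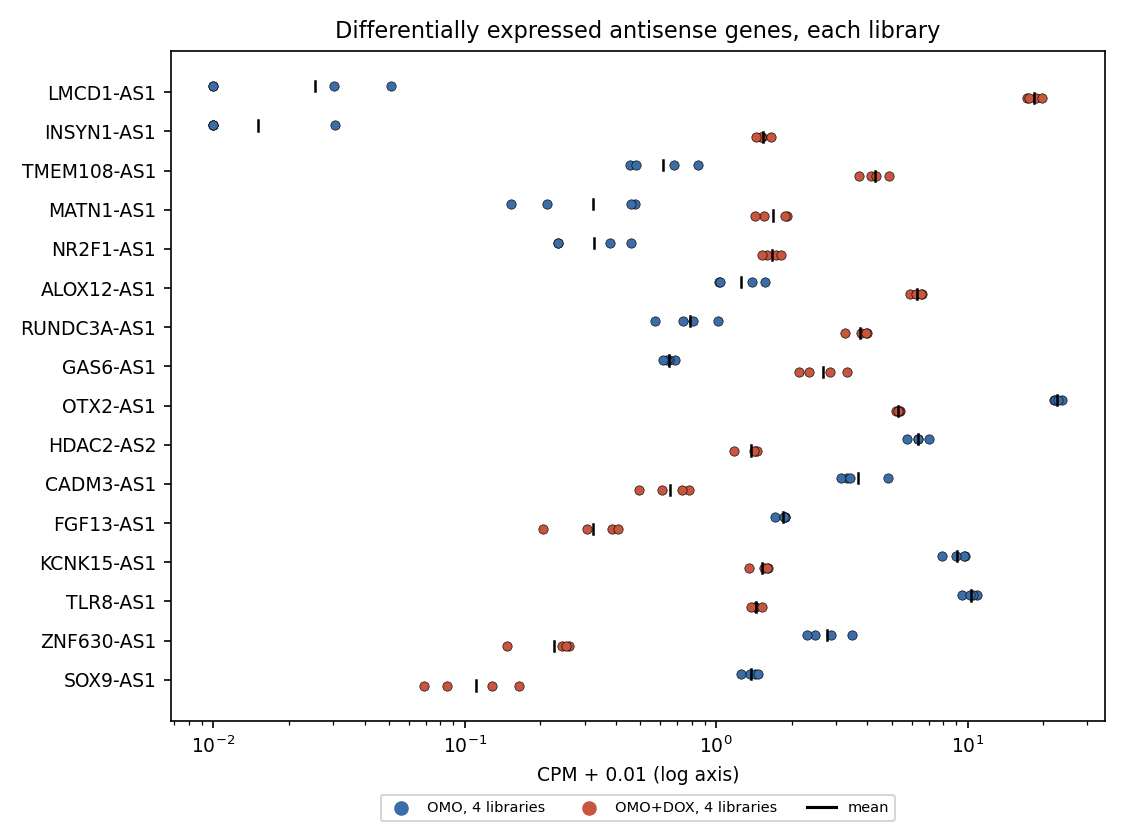
CPM plus 0.01 on a log axis for the 16 differentially expressed antisense genes, with each library as a point (blue for OMO, red for OMO+DOX) and the mean as a bar. Most of the OMO points of LMCD1-AS1 and INSYN1-AS1 sit at the left edge, where the count was 0, and 11 of the 16 genes passed the level filter through the libraries of 1 group only, which fixes the separation of their groups.

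The most abundant members moved little. LRRC75A-AS1, the snoRNA host gene also called SNHG29, was the highest at 828, 819, 983 and 838 CPM in OMO and 587, 614, 623 and 658 CPM in OMO+DOX, a log2FC of -0.48 (SE 0.06, adjusted p = 2.78e-05). LRRC75A stayed near 1 CPM and was not tested. GABPB1-AS1 fell from 310 ± 43.8 to 232 ± 24.9 CPM (log2FC -0.42, adjusted p = 0.00284), although its groups overlapped, and GABPB1, a subunit of the GA-binding protein, fell by 0.32 on the log2 scale. FGD5-AS1 fell from 122 ± 6.26 to 103 ± 1.59 CPM (log2FC -0.24, adjusted p = 0.000527), while FGD5, an exchange factor for CDC42, rose with a log2FC of 1.10. With library size as the only scaling the log2FC of FGD5-AS1 was -0.12 and did not pass (adjusted p = 0.0565). That scaling shifted the median of all genes upward by 0.13 on the log2 scale.

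The other abundant members rose by small amounts. OIP5-AS1, the conserved lncRNA also known as cyrano, held 179, 173, 141 and 169 CPM in OMO and 205, 215, 198 and 190 CPM in OMO+DOX (log2FC 0.29, SE 0.07, adjusted p = 0.00364). OIP5, which loads the centromeric histone, moved the other way, from 13.1 ± 1.2 to 4.72 ± 0.177 CPM (log2FC -1.47). THAP9-AS1 rose from 71.0 ± 0.597 to 101 ± 5.35 CPM (log2FC 0.50), and THAP9, a gene derived from a transposase, did not pass (log2FC 0.13, adjusted p = 0.181). OTUD6B-AS1, whose start lies 7 bp from that of the deubiquitinase gene OTUD6B, rose with a log2FC of 0.22 and OTUD6B with 0.51. TP73-AS1 had a log2FC of 0.28 and PSMA3-AS1 one of 0.25 (SE 0.05 each). PSMA3, a proteasome subunit, did not pass and its value changed sign with the scaling (log2FC -0.02, and 0.11 with library size only).

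A sense gene could be tested in 254 pairs, which hold 252 distinct sense genes because some genes have several antisense partners. Of the sense genes 97 rose, 102 fell and 53 did not pass, and 8 were differentially expressed upward and 7 downward. These are 38.5% higher and 40.5% lower, beside 38.5% and 38.1% of all genes tested, and 3.17% and 2.78%, beside 4.38% and 2.75%, and so lie near the background. Of the sense genes that passed, 48.7% were higher, and 59.0% with library size as the only scaling. Both genes passed in 146 pairs. They moved in the same direction in 104 of these, 49 upward and 55 downward, and in opposite directions in 42, with the antisense gene up in 20 and down in 22. That is 71.2% in the same direction, beside 66.9% of 2114 pairs of neighbouring genes of any kind on opposite strands in which both passed. The neighbours overlap or start within 5 kb of each other, and 252 of the pairs described here are among them. In a further 40 pairs the antisense gene alone passed, in 55 the sense gene alone and in 13 neither.

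By Spearman's rho, the arrangement of a pair went with how alike the changes were. Across the 30 head-to-head pairs Spearman's rho of the log2FC values was 0.79, across 31 pairs that overlap in the body only it was 0.52, and across 191 pairs with overlapping exons it was 0.37. All neighbouring pairs gave 0.33. These are descriptions across pairs that share libraries. Among pairs with both genes past the test, the same direction was seen in 17 of 21 head-to-head pairs, 16 of 18 pairs overlapping in the body only and 70 of 106 pairs with overlapping exons. By this share the pairs overlapping in the body only came first, with 88.9% beside 81.0% of head-to-head pairs. The difference between arrangements was not tested. By distance, 42 of 56 pairs with starts within 1 kb and 62 of 90 pairs with starts farther apart moved in the same direction. Spearman's rho was 0.53 across all tested pairs with starts within 1 kb and 0.41 across the others.

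Head-to-head pairs, named here after their values were seen, show both directions. COX10-AS1, whose start lies 1 bp from that of COX10, held 10.5, 8.96, 7.62 and 10.2 CPM in OMO and 23.6, 24.7, 22.4 and 20.9 CPM in OMO+DOX (log2FC 1.30, SE 0.09, adjusted p = 1.53e-07). COX10, an enzyme of the pathway to heme A of cytochrome oxidase, rose from 9.68 ± 0.540 to 37.9 ± 1.58 CPM (log2FC 1.97). UBL7-AS1 held 4.49, 4.74, 5.12 and 4.41 CPM in OMO and 9.62, 10.7, 11 and 8.85 CPM in OMO+DOX (log2FC 1.10), and the ubiquitin-like gene UBL7, with a start 83 bp away, had a log2FC of 1.72. In both pairs the sense gene rose further. SOX21-AS1 held 9.39, 12.3, 10.2 and 10.8 CPM in OMO and 2.88, 2.89, 2.97 and 3.02 CPM in OMO+DOX (log2FC -1.86), and SOX21, an HMG-box factor of neural progenitors, fell from 40.8 ± 4.78 to 6.69 ± 0.377 CPM (log2FC -2.61). INKA2-AS1 had a log2FC of -0.93 beside -0.70 for the kinase inhibitor gene INKA2, USP2-AS1 -1.39 beside -0.72 for the deubiquitinase gene USP2, and SCAMP1-AS1 -1.0 beside -0.48 for the vesicle gene SCAMP1. TRIM52-AS1 and TRIM52 had log2FC values of 0.02 and -0.15 and did not pass. The 4 head-to-head pairs that moved in opposite directions were BOLA3-AS1, ZNF674-AS1, ZNF528-AS1 and PAN3-AS1, each with the antisense gene down.

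**Figure D3:**
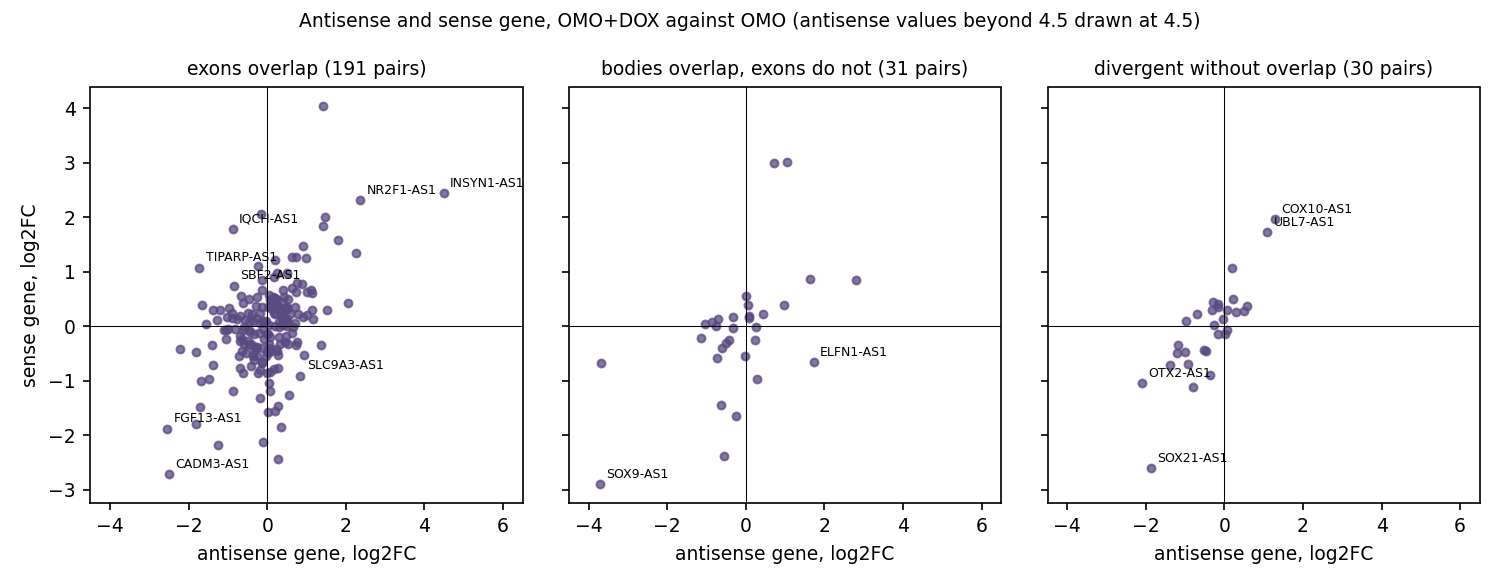
Log2FC of the sense gene (vertical axis) against that of its antisense gene (horizontal axis), OMO+DOX against OMO, for pairs whose exons overlap, pairs that overlap in the body only and head-to-head pairs. Each point is a pair, and the 30 head-to-head pairs lie closest to a rising diagonal, while pairs with overlapping exons also fill the quadrants of opposite direction.

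The largest changes in opposite directions were smaller than those in the same direction. The same-direction pairs compared are those of SOX9-AS1, CADM3-AS1, FGF13-AS1, INSYN1-AS1 and NR2F1-AS1. All of these antisense genes entered the set through 1 group only, so the filter fixed the separation of their groups. The comparison of sizes is a description and was not tested. TIPARP-AS1 held 1.10, 1.32, 1.22 and 1.12 CPM in OMO and 0.315, 0.449, 0.274 and 0.418 CPM in OMO+DOX (log2FC -1.72, SE 0.17). It entered the set through the OMO libraries only, so the filter fixed the separation of its groups. TIPARP, an ADP-ribosyltransferase induced by the aryl hydrocarbon receptor, rose from 17.2 ± 1.04 to 36.2 ± 1.73 CPM (log2FC 1.07). IQCH-AS1 fell from 5.68 ± 0.509 to 3.10 ± 0.383 CPM (log2FC -0.88) and IQCH, which encodes a calmodulin-binding motif protein, rose from 1.37 ± 0.0559 to 4.74 ± 0.472 CPM (log2FC 1.79). SBF2-AS1 had a log2FC of -0.84 and SBF2, a myotubularin-related gene, one of 0.74. The antisense gene was up in the other two pairs. SLC9A3-AS1 had a log2FC of 0.85 and the sodium-proton exchanger gene SLC9A3 one of -0.91. ELFN1-AS1 held 3.16, 2.98, 3.42 and 3.0 CPM in OMO and 10.4, 9.67, 10.4 and 11.2 CPM in OMO+DOX (log2FC 1.73), while the synaptic gene ELFN1 fell from 4.61 ± 0.652 to 2.92 ± 0.397 CPM (log2FC -0.66).

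The ratio of antisense to sense counts was then taken in each library, as log2 of both counts plus 0.5, which cancels the library scaling. The ratios of the groups did not overlap in 163 of 254 pairs (64.2%), higher upon DOX in 71 and lower in 92. Over all opposite-strand neighbours that share was 65.9%, so the balance within these pairs shifted about as often as within neighbouring genes in general. By arrangement it was 60.0% of head-to-head pairs, 61.3% of pairs overlapping in the body only and 64.9% of pairs with overlapping exons. The pairs described next were picked for the largest differences among pairs whose groups do not overlap, so their values are given without a test.

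Where the ratio rose most, the sense gene usually fell. INSYN1-AS1 had the largest rise, from -6.92 ± 0.58 to -2.56 ± 0.16, on OMO counts of 0 or 1. TP73-AS1 to TP73 rose from 0.875, 0.982, 0.959 and 0.912 to 3.58, 3.82, 3.70 and 3.50. TP73, a member of the p53 family, fell from 26.9 ± 0.83 to 4.96 ± 0.532 CPM (log2FC -2.43), and its antisense gene rose slightly. STX18-AS1 did not pass the test (9.30 ± 0.787 and 8.63 ± 0.617 CPM, log2FC -0.11, and 0.016 with library size only), while STX18, a syntaxin of the endoplasmic reticulum, fell from 139 ± 18.1 to 31.6 ± 0.974 CPM (log2FC -2.13). The starts of STX18-AS1 and STX18 lie 215 bp apart. ELFN1-AS1 rose by 2.39 on the log2 ratio scale, from both sides.

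Where the ratio fell most, the sense gene rose in all pairs except that of ZNF630. ZNF630-AS1 to ZNF630 fell from -2.06 ± 0.27 to -5.01 ± 0.43 as both genes fell and the antisense gene fell further. ASMTL-AS1 to ASMTL fell from -2.47 ± 0.07 to -5.09 ± 0.09. Here both genes rose, ASMTL-AS1 from 2.28 ± 0.150 to 6.08 ± 0.714 CPM (log2FC 1.42) and ASMTL, a gene of the pseudoautosomal region, from 12.6 ± 0.424 to 207 ± 27.0 CPM (log2FC 4.04). CDKN2B-AS1 to CDKN2B fell from 0.19 ± 0.32 to -2.10 ± 0.17. CDKN2B, the cell cycle inhibitor p15, rose from 0.593 ± 0.107 to 4.79 ± 0.235 CPM (log2FC 3.0, SE 0.13). CDKN2B-AS1, also called ANRIL, held 0.672 ± 0.066 and 1.12 ± 0.175 CPM (log2FC 0.72). It entered the set through the OMO+DOX libraries only, so the filter fixed the separation of its groups. TIPARP-AS1 fell by 2.78 and IQCH-AS1 by 2.65 on the log2 ratio scale.

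**Figure D4:**
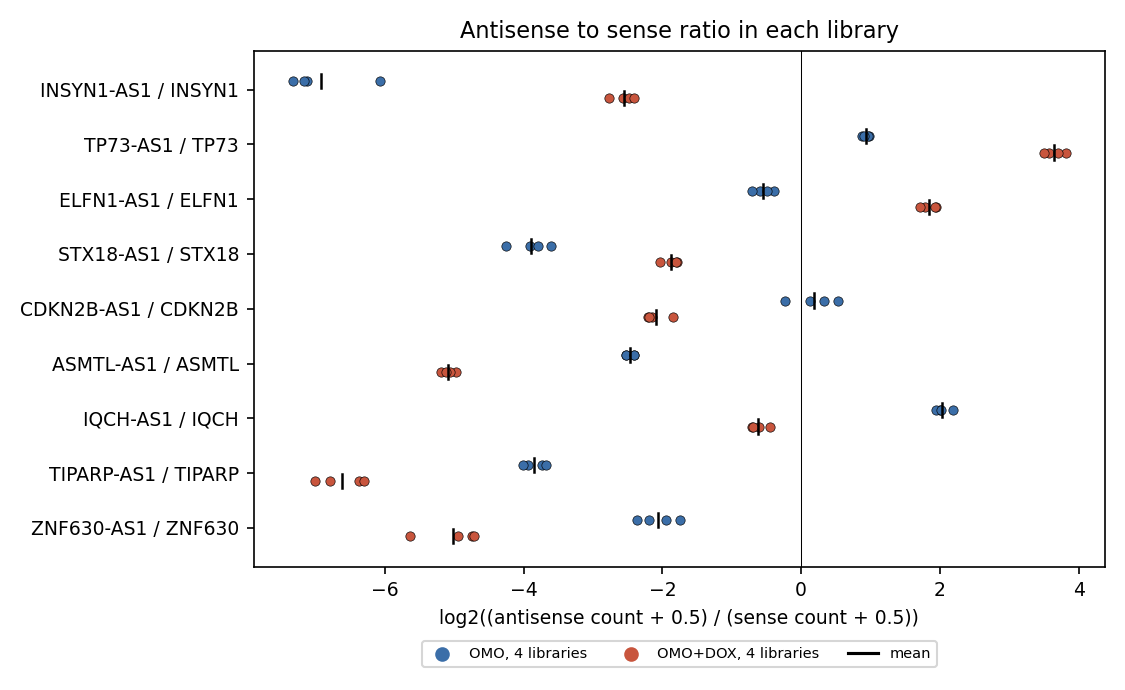
Log2 ratio of antisense to sense count, each plus 0.5, in each library (blue for OMO, red for OMO+DOX, bar for the mean) for 4 of the 5 pairs with the largest rise and the 5 with the largest fall of the ratio. Pairs were picked for non-overlapping groups and large differences, and INSYN1-AS1 moved from -6.92 to -2.56 at the top of the plot while ZNF630-AS1 moved from -2.06 to -5.01 at the bottom.

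Levels of both genes can be compared per length, as CPM per kb of annotated exon. Of the 254 pairs, the antisense gene lay below the sense gene in every OMO library in 197 pairs and above it in 41, and upon DOX in 202 and 35. The median antisense level was 23.5% of the sense level per kb in OMO and 21.8% in OMO+DOX. In 29 pairs the antisense gene was the higher gene in both groups, among them FGD5-AS1, GABPB1-AS1, THAP9-AS1 and TP73-AS1. The order turned over in 7 pairs, named after their values were seen. IQCH-AS1, TMEM44-AS1, ZFHX2-AS1, ZNF528-AS1, ZNF630-AS1 and ZNF674-AS1 lay above the sense gene in OMO and below it in OMO+DOX. ZFHX2-AS1 went from 167% to 43.2% of the level of ZFHX2, a zinc finger homeobox gene, although the antisense gene itself rose (log2FC 1.06), while ZFHX2 had a log2FC of 3.01. TMEM44-AS1 went from 209% to 45.0% of TMEM44 without passing the test itself (log2FC -0.16, adjusted p = 0.16). SLC12A5-AS1 went the other way, from 55.9% to 131% of SLC12A5, the neuronal chloride exporter gene KCC2. It held 0.346 to 0.493 CPM in OMO and 0.977 to 1.28 CPM in OMO+DOX. SLC12A5-AS1 entered the set through OMO+DOX only and ZNF630-AS1 through OMO only, so the filter fixed the separation of their groups.

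**Figure D5:**
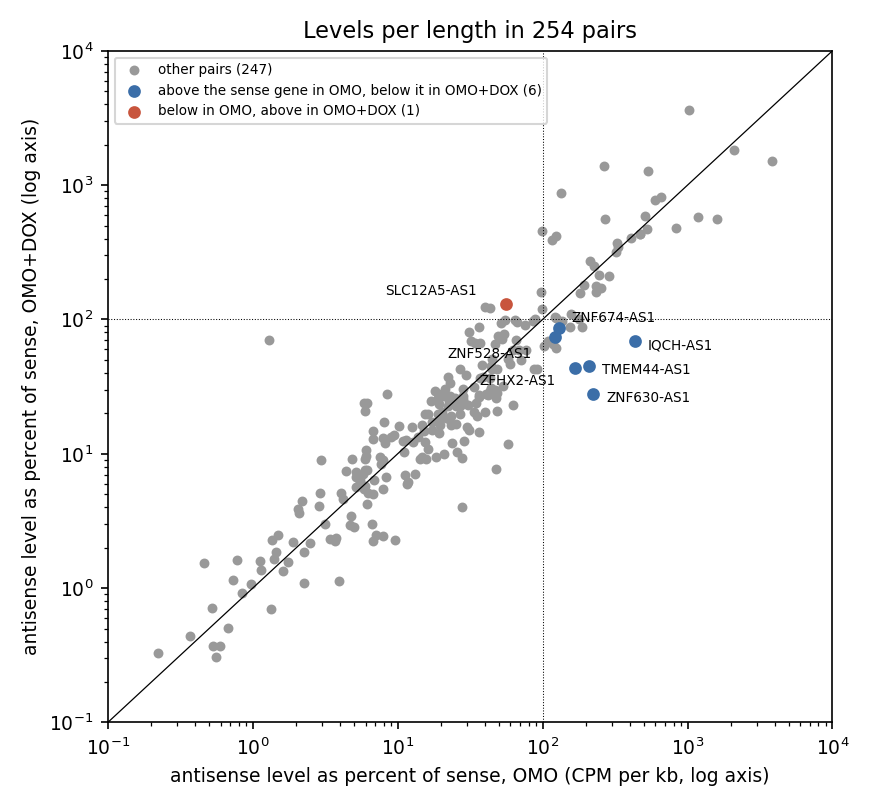
Antisense level as a percentage of the sense level, both in CPM per kb, in OMO (horizontal log axis) and OMO+DOX (vertical log axis) for 254 pairs, with dotted lines at 100% and a diagonal of equal percentages. Most pairs lie below 100% on both axes. Coloured pairs crossed 100% with no overlap between the libraries of both genes in either group, 6 downward upon DOX and 1 upward. Other pairs also crossed 100%, but the libraries of their genes overlapped in a group.

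The members were also grouped by what the sense gene does, to be read beside the 38.5% of all genes that rose and the 38.1% that fell. Counts of these lists include members that passed the level filter through 1 group only, where the filter fixed the separation of the groups. Of 20 partners of developmental transcription factors 8 rose and 9 fell, with a median log2FC of -0.11 beside 0.01 for all genes, and of 0.02 beside 0.14 with library size as the only scaling. Beyond SOX9-AS1, OTX2-AS1 and SOX21-AS1, NR2F2-AS1 fell (log2FC -1.14, sense gene -0.21), and TBX2-AS1 fell (-1.04) beside a TBX2 that did not pass (0.04). Beyond NR2F1-AS1, the rises included those of FEZF1-AS1 (log2FC 1.82), KLF3-AS1 (1.80, with KLF3 at 1.58) and MAFA-AS1 (1.56, with MAFA at 3.04). Both genes passed in 12 of these pairs, 10 in the same direction.

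Of 18 antisense genes of neuronal membrane and synapse genes, 10 rose and 7 fell, with a median log2FC of 0.41. The list holds GABPB1-AS1, whose sense gene is a transcription factor subunit. Of its members, BASP1-AS1, GNG12-AS1, INSYN1-AS1, RUNDC3A-AS1, SLC12A5-AS1 and TMEM108-AS1 entered the set through OMO+DOX only, and CADM3-AS1 through OMO only. The filter fixed the separation of their groups, and the counts and the median of the list include them. SLC8A1-AS1 fell with the sodium-calcium exchanger gene SLC8A1 (log2FC -1.81 and -1.80), GNG12-AS1 rose with the G protein gene GNG12 (1.63 and 0.86), TRHDE-AS1 rose with the peptidase gene TRHDE (1.46 and 2.01), and BASP1-AS1 rose (1.38) while the growth cone gene BASP1 fell (-0.35). Their 15 tested sense genes split into 6 that rose and 8 that fell, with a median of -0.32. Both genes passed in 13 of these pairs, 8 in the same direction.

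For chromatin, cell cycle and DNA repair genes, 6 of 15 antisense genes rose and 8 fell, with a median log2FC of -0.57. TMPO-AS1 held 4.47 to 5.06 CPM in OMO and 1.41 to 1.59 CPM in OMO+DOX (log2FC -1.68), and the nuclear lamina gene TMPO had a log2FC of -1.01. PRC1-AS1 fell with the spindle gene PRC1 (-0.88 and -1.19), CCNT2-AS1 fell (-1.29) while the cyclin gene CCNT2 did not pass (0.12), and KIF9-AS1 rose (0.95) while the kinesin gene KIF9 fell (-0.54). Of the 10 pairs in which both passed, 6 moved in the same direction.

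Of 23 antisense genes of metabolic and transport genes 14 rose and 5 fell, with a median log2FC of 0.51, and 14 and 3 with library size as the only scaling. The list also holds the partners of THAP9, PCBP1, PTOV1 and TPT1, which have other roles. The sense genes were evenly split, with 8 up and 8 down of 20. SLC25A25-AS1 held 14.6 to 17.7 CPM in OMO and 34.5 to 38.2 CPM in OMO+DOX (log2FC 1.14), while the mitochondrial carrier gene SLC25A25 rose less (0.30). UCKL1-AS1 rose (1.15) beside a uridine kinase gene that did not pass (0.13), and SLC16A1-AS1 fell with the lactate transporter gene SLC16A1 (-0.73 and -0.55).

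In the largest list, RNA and protein handling, 16 of 42 antisense genes rose, 12 fell and 14 did not pass, with a median of 0.02. It also holds members whose names point to other roles, among them GAS6-AS1, GAS5-AS1, RPARP-AS1, PAXIP1-AS1, PAXIP1-AS2, MAPKAPK5-AS1, STARD4-AS1 and STARD7-AS1. The names of TMEM161B-AS1 and TMEM254-AS1 give no role. Counts of this list therefore do not describe RNA and protein handling alone. TMEM161B-AS1 held 28.6, 24.7, 18.2 and 26 CPM in OMO and 68.8, 74.5, 60.2 and 55.9 CPM in OMO+DOX (log2FC 1.41), and TMEM161B had a log2FC of 1.85. RBM12B-AS1 rose with the RNA-binding protein gene RBM12B (1.13 and 0.60), and PAXIP1-AS1 fell with PAXIP1 (-1.20 and -0.50). In 18 of the 22 pairs in which both passed, the direction was the same. Among 18 antisense genes of zinc finger genes 7 rose and 7 fell, while their sense genes rose in 9 and fell in 2, and the pairs split evenly into 4 in the same and 4 in opposite directions. ZNF561-AS1 and ZNF561 rose together (0.52 and 0.51), and ZNF436-AS1 fell (-0.58) while ZNF436 did not pass (-0.02).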

How the data were processed

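The members, the gene lists and the tests were chosen with earlier results of these data known. The authors trimmed the reads, aligned them with STAR to GENCODE 32 on GRCh38 and quantified them with RSEM, and the deposited values are expected counts per gene, not normalized, which divide reads that match several genes. These expected counts were rounded to whole numbers here. Testing covered genes above 1 CPM in 4 or more of the 8 libraries and used edgeR 4.0.16 in R 4.3.3 (TMM, quasi-likelihood test, Benjamini-Hochberg adjustment over all 15222 genes, no covariates). SE is the absolute log2FC over the square root of the F statistic. In simulated counts for 15222 genes with 200 planted changes of 3 on the log2 scale, 199 were recovered, with 0 false calls at the threshold for differential expression and 7 at an adjusted p below 0.05. The planted changes were split evenly upward and downward. The simulation therefore does not cover smaller changes, or scaling where most genes change as in these data. CPM are TMM-scaled. Where a group had at most 3 counts in every library, the fold is a bound against 3 counts per library, which cover counting error only. Symbols, coordinates and exon lengths come from GENCODE 29 by Ensembl ID, which holds 99.3% of the genes tested.

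Named members are all those differentially expressed, the 8 with the highest mean CPM, the 5 largest rises and 5 largest falls of the ratio among pairs with a mean of 20 counts or more of each gene in the higher group and no overlap between groups, and the 5 pairs in opposite and 5 in the same direction with the largest smaller change. Results of some genes that these rules name are not reported here, while counts over all members include them. Members of the gene lists given as examples were chosen after their values were seen. Alternatives were DESeq2 1.42.0 size factors or Wald test, library size only, the likelihood ratio test, other filters, a replicate block, other pseudocounts and each library left out. Other steps used Python 3.11.15 with pandas 2.3.3 and numpy 2.4.6.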

Additional observations from a re-analysis of the deposited data

Results flagged for a closer look

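In 132 groups of 4 libraries, 1 library lay far from the others in 11 cases by Dixon's criterion, where chance would mark about 1 in 20, or 6.6. Among antisense genes these were LRRC75A-AS1 in OMO replicate 3 (983 CPM against 819 to 838 in the others), OTUD6B-AS1 in OMO+DOX replicate 2 (79.7 against 68.5 to 70.1), PSMA3-AS1 in OMO+DOX replicate 2 (61.7 against 56.0 to 57.0), THAP9-AS1 in OMO replicate 2 (71.9 against 70.7 to 70.8) and CADM3-AS1 in OMO replicate 2 (4.80 against 3.13 to 3.41). FGF13-AS1 stood apart in OMO replicate 3 (1.71 CPM against 1.86 to 1.88), HDAC2-AS2 in OMO+DOX replicate 3 (1.17 against 1.41 to 1.45) and ZNF630-AS1 in OMO+DOX replicate 1 (0.138 against 0.235 to 0.249). Among sense genes these were SBF2 in OMO replicate 3 (44.2 CPM against 57.3 to 59.8), TMEM108 in OMO+DOX replicate 2 (49.6 against 55.7 to 56.6) and ALOX12 in OMO replicate 3 (0.285 against 0.0896 to 0.122). OMO replicate 3 accounts for 4 of the 11. None of the tested genes among them lost its call or changed sign without the library named.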

How the results depend on the processing

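Counts of members and sense genes past either threshold, of pairs in the same or opposite direction and of separated ratios stayed within 1.5 times the reported count under all alternatives but a filter that asks for more than 4 libraries above 1 CPM. That filter left 256 of the 288 members and gave 1 member differentially expressed upward and 4 downward, and 5 sense genes upward, since it removes genes present in 1 group only. Leaving out each library gave 7 to 8 members differentially expressed upward, 8 downward, 99 to 105 at the looser threshold upward and 104 to 116 downward, and 95 to 118 pairs in the same direction. Of 885 alternative values of the 60 named genes, 878 kept direction and call, 2 fell short of the threshold, 2 passed it and 3 turned sign. Those that turned sign were STX18-AS1 with library size only (log2FC 0.016) and PSMA3 with library size only (0.11) and without OMO replicate 3 (0.0198), with values from -0.0486 to 0.0198 over the left-out libraries. STX18-AS1 passed the test without OMO replicate 3 (log2FC -0.17, adjusted p = 0.0412) and THAP9 with library size only (0.25, adjusted p = 0.022). The cause was not tested. Replicate numbers are shared between groups, and whether they mark paired cultures is not stated. Correlations were -0.18 to 0.24 for same-numbered libraries and -0.29 to 0.35 for the others, ranges that overlap and cannot settle it. With a replicate block, 8 members were differentially expressed upward and 8 downward, and 107 rose and 109 fell at the looser threshold. Depth limits members near 1 CPM, such as those with 0 to 2 counts in a group, and reads of overlapping exons cannot be divided further from these counts.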

Other observations

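Members outside the named groups also moved, and were picked after their values were seen. KCTD21-AS1 held 8.71 to 9.19 CPM in OMO and 2.11 to 3.02 CPM in OMO+DOX (log2FC -1.80, SE 0.10), while KCTD21, which encodes an adaptor of a ubiquitin ligase, had a log2FC of -0.48. MBNL1-AS1 fell from 5.06 to 6.02 CPM in OMO to 1.45 to 1.92 CPM in OMO+DOX (log2FC -1.66), and the splicing factor gene MBNL1 rose (0.39). DDIT4-AS1 held 8.12, 17.1, 20.2 and 21.6 CPM in OMO and 3.15 to 6.93 CPM in OMO+DOX (log2FC -1.70), and DDIT4, a stress-induced inhibitor of mTORC1, fell as well (-1.48). SSBP3-AS1 had a log2FC of -1.26 beside -2.18 for SSBP3, which fell from a mean of 515 to 114 CPM. The spread of DDIT4-AS1 within OMO was wide, and its groups did not overlap.

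Some sense genes have 2 named antisense partners. DLGAP1-AS1 and DLGAP1-AS2 fell alike (log2FC -1.03 and -1.01), and TSPEAR-AS1 and TSPEAR-AS2 rose alike (1.5 and 1.22), in both cases beside a sense gene under 1 CPM that was not tested. At PAXIP1, which fell, the head-to-head PAXIP1-AS1 fell (-1.20) and PAXIP1-AS2, whose exons overlap the sense gene, did not pass (0.02, SE 0.14). At PTOV1, which also fell, PTOV1-AS1 fell (-0.63) and PTOV1-AS2 did not pass (adjusted p = 0.98).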
